A study of Mus musculus with 7 samples.

Results

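The genes described here handle iron at successive steps: Lcn2 and Slc22a17 bind and receive iron carried by siderophores, Tfrc and Slc11a1 bring iron into the cytosol, Fth1 and Ftl1 store it, Hmox1 frees it from heme, and Slc40a1 exports it. These 8 genes were chosen by name for their roles, from the 53465 genes of a table of estimated counts, and all 8 were among the 15645 genes that passed the filter on low counts. RNA was sequenced from tumors that 500000 cells of EMT6, a mouse mammary carcinoma line, formed in the mammary fat pad of female BALB/c mice aged 6 to 8 weeks. The 3 EMT6-P tumors grew under an isotype control antibody and the 3 EMT6-PTR tumors, labelled PDR by the submitters, grew under an antibody against PD-L1 (αPD-L1), an immune-checkpoint inhibitor. Both antibodies were given at 250 μg per mouse every 3 days until the institutional endpoint. A single metastasis came from the PTR variant under αPD-L1, and the labels do not give its site. In the study's design, PTR stands for 1 treatment-resistant variant of EMT6, taken from mice whose tumors grew back under the antibody. Resistance and exposure to αPD-L1 therefore cannot be told apart here. No label ties the libraries to separate mice, so that p-values measure the spread between libraries. The total estimated count per library ranged from 20430110 to 25213472. Values are in CPM, counts scaled to a library of 1000000 counts with upper-quartile factors. A count of 0 allows a true level of up to 3 counts per library, or 0.117 to 0.168 CPM, which covers counting error only.

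Cells take up most of their iron as transferrin, which the transferrin receptor carries into endosomes, and keep what they do not use inside ferritin, a shell of heavy and light subunits. Ferroportin is the only known transporter that exports iron not bound in heme, and the hormone hepcidin removes this transporter from the cell surface. Inflamed tissue withholds iron from microbes: neutrophils, epithelial cells and some tumor cells secrete lipocalin-2, which captures iron-laden siderophores, while macrophages recover iron from heme. These are bulk libraries, in which fewer cells of a type and less RNA per cell cannot be told apart.

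Several libraries stood apart from the others before any iron gene was considered. Across the tested genes, log2 CPM correlated between the EMT6-P tumors at 0.976 to 0.985 (Pearson's r, a description across genes), whereas EMT6-PTR replicate 3 correlated with the EMT6-P tumors at 0.900 to 0.908 and the metastasis at 0.871 to 0.873. EMT6-PTR replicate 3 also held the largest amount of fibroblast transcripts, with 27228 CPM summed over 10 markers against 6257 to 8654 CPM in the EMT6-P tumors. EMT6-PTR replicate 2 had 13.8% of its counts on a single ribosomal RNA gene, CT010467.1, against 0.433% to 1.35% in the other 6 libraries. EMT6-PTR replicate 1 held 4226 CPM of skeletal muscle transcripts, against 12.1 to 629.7 CPM in the EMT6-P tumors. Of the carcinoma and epithelial markers, Vim stood at 2230.2 to 4558 CPM and Krt8 at 505 to 1897 CPM in the 6 tumors. The epithelial adhesion genes Epcam and Cdh1 reached at most 10.5 and 9.72 CPM. Which cells gave the Vim transcripts was not tested. Adipocyte markers summed to 11.3 to 45.7 CPM over the 7 libraries, and endothelial markers to 154 to 199 CPM in the tumors and 1148 CPM in the metastasis. In the metastasis all 8 lung markers stood above all 6 tumors, beside 24.8% of 18619 genes. Among them were Scgb1a1, a secretory protein of airway cells, at 2957 CPM and Sftpc, a surfactant protein of the alveolus, at 2309 CPM.

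Transcripts of iron genes are read by iron regulatory proteins at a hairpin called the iron-responsive element. In iron-poor cells these proteins bind the hairpin. In a 5′ untranslated region (UTR) they block translation, as for ferritin and ferroportin, and in the 3′ UTR of Tfrc they slow the decay of the transcript. The elements are shown because they mark which of the 8 genes are under this control and at which end, and because control at the 5′ end acts on translation, which counts of RNA do not read. GENCODE M21 transcripts (mouse build GRCm38) were searched on the sense strand for a C, any 5 bases, the 6 loop bases CAGTGN and 5 further bases that pair with those before the loop, G-T pairs allowed. A match was found in a 5′ UTR for 31 of 21865 protein-coding genes (0.142%) and in a 3′ UTR for 144 (0.659%). Of the 8 genes, 4 held a match: Fth1 (chr19:9982732-9982761, plus strand), Ftl1 (chr7:45459778-45459807, minus strand) and Slc40a1 (chr1:45925464-45925493, minus strand) in the 5′ UTR, and Tfrc at 4 places in the 3′ UTR on the plus strand (chr16:32631219-32631248, chr16:32631598-32631627, chr16:32631663-32631692 and chr16:32631710-32631739). The sequences follow 5′ to 3′ as DNA letters of the transcript, with the 6 bases of the loop in capitals.
Fth1 5′ UTR: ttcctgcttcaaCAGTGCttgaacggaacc
Ftl1 5′ UTR: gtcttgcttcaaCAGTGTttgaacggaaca
Slc40a1 5′ UTR: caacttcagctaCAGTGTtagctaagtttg
Tfrc 3′ UTR, site a: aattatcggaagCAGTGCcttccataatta
Tfrc 3′ UTR, site b: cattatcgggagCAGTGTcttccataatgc
Tfrc 3′ UTR, site c: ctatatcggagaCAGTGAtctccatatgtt
Tfrc 3′ UTR, site d: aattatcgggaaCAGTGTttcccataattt
A match of letters is a description of the transcript and does not show that the element was bound in these tumors.

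Setting EMT6-PTR against EMT6-P tumors asks which transcripts differ in tumors of the resistant variant. None of the 8 genes differed between the groups beyond the spread of the tumors. The adjusted p-values ranged from 0.437 for Slc40a1 to 0.998 for Slc11a1 (edgeR's quasi-likelihood test, Benjamini-Hochberg adjustment over 15645 genes). The same test called 0 of all genes tested (0%), while 1786 (11.4%) had an unadjusted p under 0.05, 5.84% upward and 5.57% downward, which 0 of the 8 did. Slc40a1, with an unadjusted p of 0.051 in this fit, was just outside, and had an unadjusted p of 0.028 to 0.049 under DESeq2, TMM scaling, total counts, both other filters and with the metastasis in the fit. In those fits 1698 to 2201 of 14028 to 28451 genes tested were under 0.05. Without EMT6-PTR replicate 1, 2872 of 15950 genes were under 0.05, among them Slc40a1 and Lcn2 with unadjusted p of 0.0040 and 0.032 (edgeR). DESeq2 called 138 genes higher and 143 lower and limma-voom called 0, and 0 of the 8 were called by either. The groups overlapped for all 8 genes, against 21.3% of tested genes whose groups did not overlap, 9.47% higher and 11.8% lower in EMT6-PTR. Lcn2 was the only one of the 8 with a fold change of 2 or more, a size that 6.27% of tested genes reached upward and 1.29% downward. Its log2 fold change was 0.29 without EMT6-PTR replicate 2, and Slc40a1 passed that size (1.12) without EMT6-PTR replicate 1. Of the 8 log2 fold changes, 5 were above 0 and 3 below, with a median of 0.02, beside 0.03 over all genes tested, of which 52.3% were above 0. With single tumors omitted, from 2 to 5 of the 8 were above 0, fewest with EMT6-P replicate 3 omitted. Taken singly, EMT6-PTR replicate 1 was above all 3 EMT6-P tumors for 0 and below them for 2 of the 8 genes, where 31.9% and 33.1% of tested genes were. Replicate 2 was above them for 4 genes, Lcn2, Hmox1, Slc40a1 and Slc11a1, and below for 1 (34.3% and 37.7% of tested genes), and replicate 3 was above for 2 and below for 3 (39.9% and 42.6%). With 8 genes such counts are coarse, and nothing is read from their distance to these shares.

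**Figure D1:**
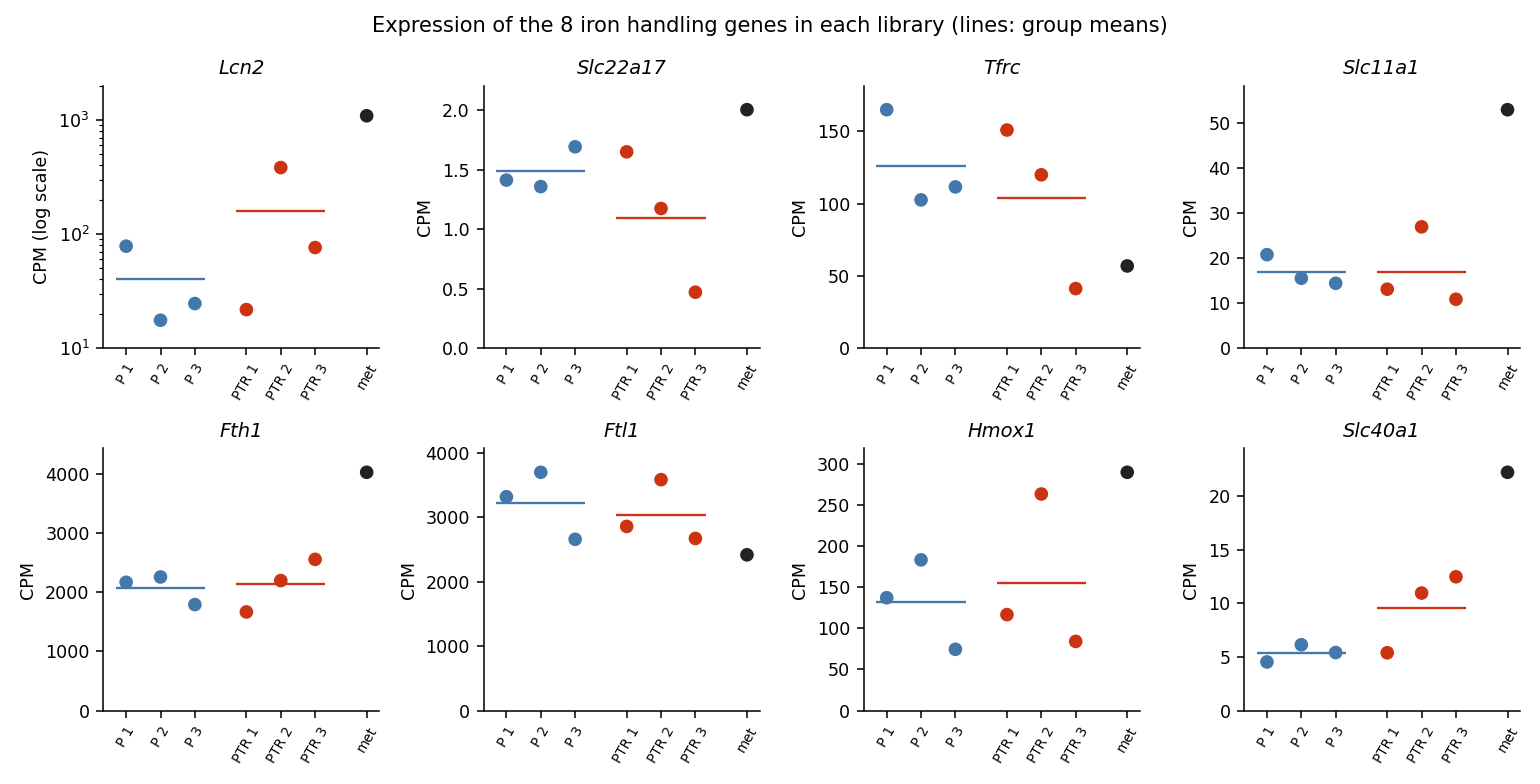
CPM of each of the 8 genes in each library (P, EMT6-P; PTR, EMT6-PTR; met, metastasis), with points for libraries and lines for the mean of 3 tumors; the Lcn2 axis is logarithmic and the others start at 0. The groups overlap in every panel, and the metastasis lies above all 6 tumors for every gene except Tfrc and Ftl1.

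**Figure D2:**
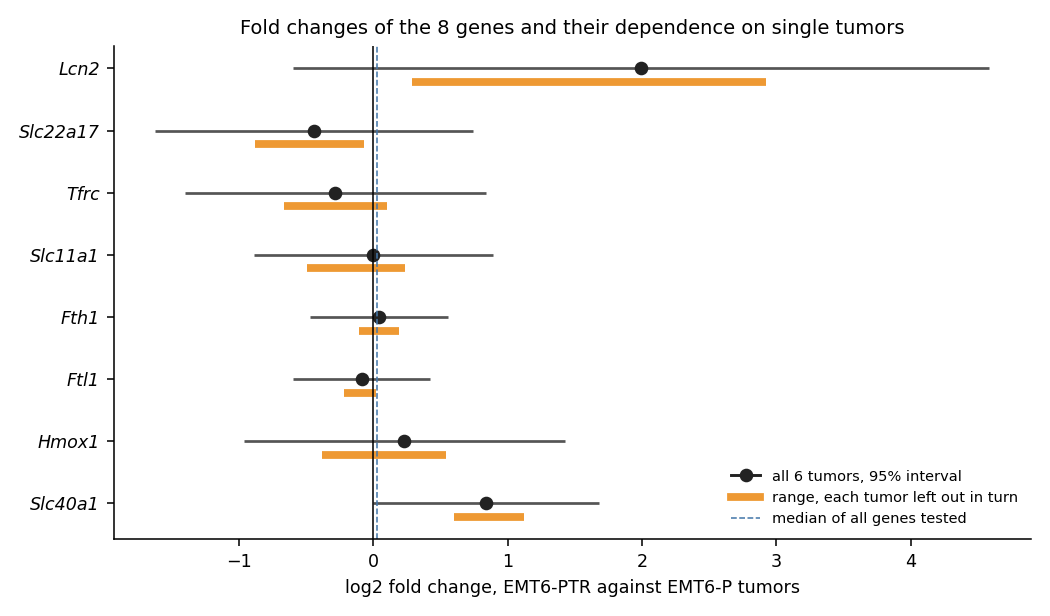
Log2 fold change of EMT6-PTR against EMT6-P for each gene (dot) with its 95% confidence interval (grey line) and the range obtained when each tumor was left out in turn (orange bar). All 8 intervals include 0, and the bar of Lcn2 is the widest, from 0.29 to 2.92.

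Lcn2 (ENSMUSG00000026822.14, minus strand of chromosome 2 from 32384633 to 32388252 in GRCm38), which encodes lipocalin-2, had the widest spread of the 8 genes. It stood at 78.3, 17.5 and 24.5 CPM in EMT6-P replicates 1 to 3, at 21.7, 383 and 76.1 CPM in EMT6-PTR replicates 1 to 3, and at 1093 CPM in the metastasis. EMT6-PTR replicate 2 alone was above every EMT6-P tumor, EMT6-PTR replicate 1 lay inside the EMT6-P range and EMT6-PTR replicate 3 just under its top. The log2 fold change was 2.00 (standard error, SE, 1.08, 95% interval from -0.59 to 4.58, adjusted p 0.495), and 0.29 (adjusted p 0.883) without EMT6-PTR replicate 2. The coefficient of variation was 82.9% among the EMT6-P tumors and 121.6% among the EMT6-PTR tumors.

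Slc22a17 (ENSMUSG00000022199.11, minus strand of chromosome 14 from 54906304 to 54913132), a cell surface receptor for lipocalin-2, had few counts. Its estimated counts were 29, 29 and 36 in EMT6-P, 38, 21 and 12 in EMT6-PTR and 51 in the metastasis, or 1.41, 1.36 and 1.69 CPM, 1.65, 1.17 and 0.469 CPM and 2.00 CPM. EMT6-PTR replicate 3 was the lowest of the 7 libraries, and EMT6-PTR replicate 1 lay inside the EMT6-P range. The log2 fold change was -0.44 (SE 0.49, adjusted p 0.717), -0.88 when EMT6-PTR replicate 1 was omitted and -0.07 when replicate 3 was. Of the other genes of siderophore binding, Lrp2, the endocytic receptor megalin, had 0 counts in all 6 tumors and 322 counts (12.7 CPM) in the metastasis. Mc4r, a melanocortin receptor, had no more than 3 counts in any library. Bdh2, an enzyme placed in the synthesis of a mammalian siderophore, ranged from 2.00 to 4.65 CPM in the tumors (log2 fold change 0.11, adjusted p 0.935).

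The genes whose levels followed Lcn2 most closely were sought among 10181 genes with a mean of at least 10 CPM over the 7 libraries. The highest Pearson's r of log2 CPM belonged to Tgtp2 (0.992), Lims2 (0.984), Igtp (0.983), Ifi47 (0.983) and Irgm2 (0.976). Over the 6 tumors alone r was 0.983, 0.972, 0.964, 0.967 and 0.994. Tgtp2, Igtp, Ifi47 and Irgm2 belong to the GTPases that interferons induce, and Lims2 encodes an adaptor at cell adhesions. Igtp, for example, stood at 61.5, 38.4 and 49.0 CPM in EMT6-P, 33.6, 140.3 and 81.2 CPM in EMT6-PTR and 232 CPM in the metastasis. In each of these 5 genes the metastasis or EMT6-PTR replicate 2 was the highest library. The 5 are the top of a ranking over few libraries that share their depth and cell mix, and carry no test.

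Markers of blood cells also varied with Lcn2. The 9 erythroid markers in the table summed to 146, 33.7 and 36.2 CPM in EMT6-P, 46.0, 382 and 203 CPM in EMT6-PTR and 7679 CPM in the metastasis. The libraries with the most Lcn2, the metastasis and EMT6-PTR replicate 2, thus also held the most erythroid transcripts. The most abundant marker was the hemoglobin gene Hbb-bs, at 61.6, 12.4 and 13.3 CPM, 17.5, 165 and 82.8 CPM and 3735 CPM. Slc4a1, the anion exchanger of the red cell membrane, did not pass 3 counts in any tumor. The log2 fold changes of the 6 erythroid markers that passed the filter were all above 0 with a median of 1.54 and 0 called. Omitting EMT6-PTR replicate 2 lowered the median to 0.74, omitting EMT6-P replicate 1 raised it to 2.54, and with EMT6-PTR replicate 3 omitted 5 of the 6 were above 0. The part of blood in the Lcn2 values was not tested.

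Neutrophils are a main source of lipocalin-2. The 14 neutrophil markers summed to 40.6, 62.6 and 25.7 CPM in EMT6-P and 47.6, 49.7 and 51.9 CPM in EMT6-PTR. The sum in EMT6-PTR replicate 2, the tumor with 383 CPM of Lcn2, lay inside the EMT6-P range. S100a9, the most abundant of them, stood at 19.0 CPM in that tumor and at 6.16 to 29.0 CPM in EMT6-P. Of the 14 markers, 4 were above all EMT6-P tumors in EMT6-PTR replicate 2 and 1 was below, beside 34.3% and 37.7% of tested genes. Of the 8 that passed the filter, 5 had a log2 fold change above 0 (median 0.33) and 0 were called, and omitting EMT6-P replicate 2 or 3 brought the median to 0.71 or -0.08 and omitting EMT6-PTR replicate 3 to -0.04. Ly6g, Mpo and Elane, which define neutrophils and their granules, had no more than 3 counts in any of the 6 tumors. In the metastasis the sum was 3397 CPM with S100a9 at 1519 CPM. All 14 markers stood above all 6 tumors there, beside 24.8% of 18619 genes. Prtn3, a granule protease, had the smallest p of the list (log2 fold change 3.85, adjusted p 0.427) and its highest tumor value, 13.4 CPM, in EMT6-PTR replicate 3. The 12 macrophage markers summed to 2577 CPM in EMT6-PTR replicate 2, under the 2670.2 to 3171 CPM of the EMT6-P tumors, with Lyz2 the most abundant. The 8 lung markers summed to 32.0 CPM in that tumor, of which Ager, a receptor of alveolar cells that other cells also express, gave 26.1 CPM and Sftpc and Scgb1a1 0 counts. The part of these cells in the Lcn2 value of the metastasis was not tested.

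**Figure D3:**
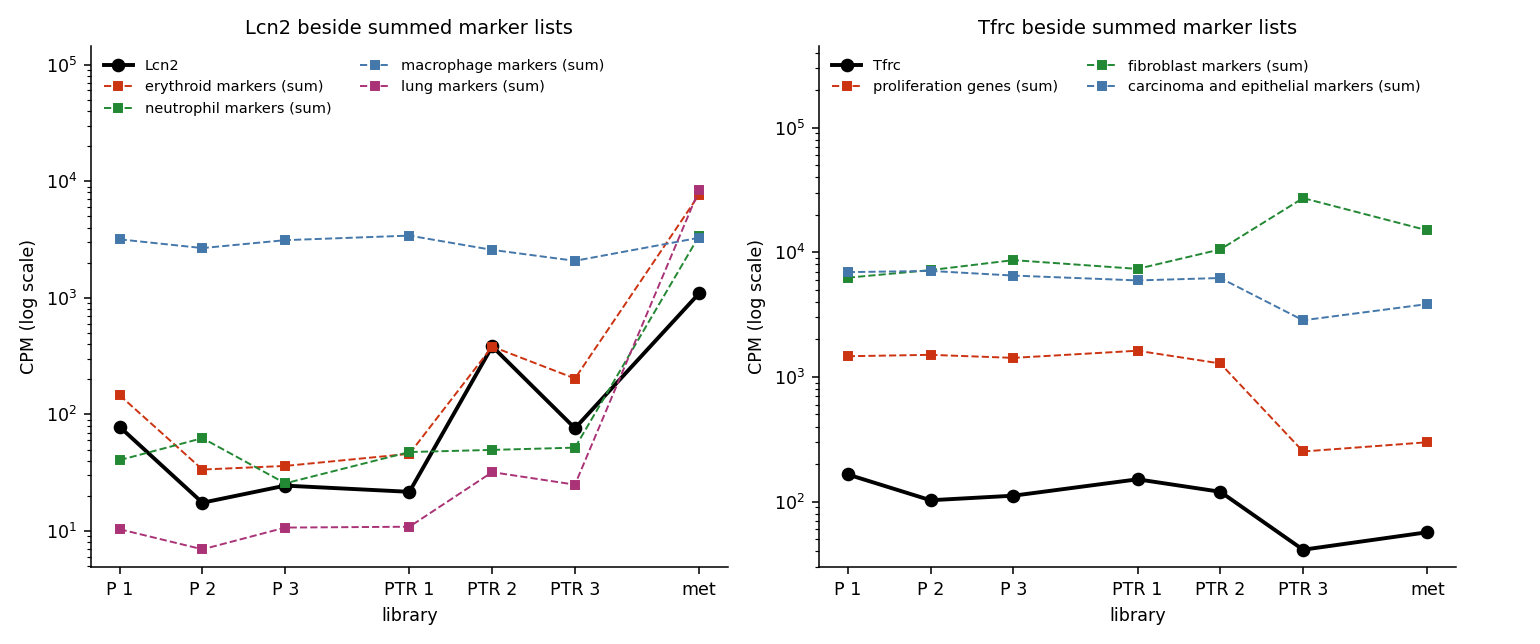
CPM on a logarithmic axis in each library of Lcn2 (left, black) and Tfrc (right, black), beside the summed CPM of marker lists (dashed). Among the 6 tumors, Lcn2 (383 CPM) and the erythroid sum (382 CPM) are both highest in EMT6-PTR replicate 2, where the neutrophil sum is 49.7 CPM, and Tfrc is lowest in EMT6-PTR replicate 3 and the metastasis, as are the proliferation genes.

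Tfrc (ENSMUSG00000022797.15, plus strand of chromosome 16 from 32608920 to 32632794), the transferrin receptor of dividing cells, was low in 2 libraries. It stood at 165, 103 and 112 CPM in EMT6-P, at 151, 119.9 and 41.1 CPM in EMT6-PTR and at 56.8 CPM in the metastasis. EMT6-PTR replicates 1 and 2 lay inside the EMT6-P range, and EMT6-PTR replicate 3 and the metastasis lay below it. The log2 fold change was -0.28 (SE 0.47, adjusted p 0.815), and 0.10 (adjusted p 0.837) without EMT6-PTR replicate 3. The 12 proliferation genes summed to 1466, 1505 and 1422 CPM in EMT6-P, to 1624, 1283 and 252 CPM in EMT6-PTR and to 299 CPM in the metastasis, and were thus also lowest in EMT6-PTR replicate 3 and the metastasis. Top2a, a topoisomerase of dividing cells, stood at 17.5 and 22.3 CPM in these 2 libraries, against 212 to 239 CPM in EMT6-P. The sum of the 10 carcinoma and epithelial markers, of which Vim was the most abundant, was also lowest in EMT6-PTR replicate 3 and the metastasis. It was 2848 and 3841.5 CPM there, against 5949 to 7087 CPM in the other tumors. The single markers did not all follow the sum. In the metastasis 5 of the 10 stood above all 6 tumors and 1 below, beside 24.8% and 22.2% of 18619 genes. In EMT6-PTR replicate 3, 5 were below all EMT6-P tumors and 0 above, beside 42.6% and 39.9% of tested genes. The share of dividing cells or of carcinoma cells in the Tfrc values was not tested. Smyd5 (r 0.991) and Wdr43 (r 0.987), the latter a factor in ribosome assembly, followed Tfrc most closely over the 7 libraries.

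Slc11a1 (ENSMUSG00000026177.11, plus strand of chromosome 1 from 74375195 to 74386062), which moves metal ions out of the phagosomes of macrophages and neutrophils, stood at 20.7, 15.5 and 14.4 CPM in EMT6-P, 13.1, 26.9 and 10.8 CPM in EMT6-PTR and 53.0 CPM in the metastasis. EMT6-PTR replicate 2 was above and the other EMT6-PTR tumors were below all EMT6-P tumors, and the mean was 16.9 CPM in both groups (log2 fold change 0.00, SE 0.37, adjusted p 0.998). The 12 macrophage markers summed to 3415, 2577 and 2076 CPM in EMT6-PTR replicates 1 to 3 and to 3274 CPM in the metastasis. The 14 neutrophil markers summed to 47.6, 49.7 and 51.9 CPM and to 3397 CPM. The part of these cells in the Slc11a1 values was not tested. The nearest genes were Gm20412 (r 0.997), a transcript of chromosome 2 that was 9.77 to 43.4 CPM, and Ripk1 (r 0.984), a kinase of cell death and inflammation.

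The wider list of iron uptake and endosomal transport held 14 genes, of which 12 passed the filter, 5 with a log2 fold change above 0 and 7 below (median -0.11). Omitting EMT6-PTR replicate 3 turned the balance to 7 above and 5 below (median 0.05), and omitting EMT6-P replicate 1 to 7 above and 6 below (median 0.02). None was called, and 1, Tfr2, had an unadjusted p under 0.05. Tfr2, the transferrin receptor that senses iron in liver and erythroid cells, stood at 6.67, 9.55 and 5.83 CPM in EMT6-P and 9.55, 13.2 and 11.6 CPM in EMT6-PTR (log2 fold change 0.64, SE 0.26, adjusted p 0.435), so that the highest EMT6-P and the lowest EMT6-PTR tumor were nearly level. Steap3, which reduces iron in the endosome, stood at 42.6, 63.9 and 47.4 CPM against 24.0, 37.3 and 43.3 CPM (log2 fold change -0.56, adjusted p 0.462). Its relative Steap1 was lower in every EMT6-PTR tumor (19.0, 20.8 and 5.63 CPM) than in any EMT6-P tumor (36.5, 25.9 and 22.8 CPM), with an adjusted p of 0.490. The metastasis was above all 6 tumors for 6 of the 14, beside 24.8% of 18619 genes. The most distant was Slc39a8, a metal importer, at 352 CPM against 2.57 to 8.99 CPM in the tumors, and Steap4 and Ltf, lactoferrin of neutrophil granules, stood at 63.6 and 18.0 CPM.

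Both ferritin subunits were among the most abundant transcripts and varied little between tumors. Fth1 (ENSMUSG00000024661.6, plus strand of chromosome 19 from 9980598 to 9985098), the heavy subunit that oxidizes iron, stood at 2166, 2257 and 1789.9 CPM in EMT6-P, 1666, 2196 and 2554 CPM in EMT6-PTR and 4025 CPM in the metastasis. Its EMT6-PTR tumors lay on both sides of the EMT6-P range (log2 fold change 0.05, 95% interval from -0.47 to 0.56, adjusted p 0.941). Ftl1 (ENSMUSG00000050708.16, minus strand of chromosome 7 from 45457944 to 45459884), the light subunit that helps iron form its core, stood at 3314, 3693 and 2655 CPM, 2854, 3579 and 2668 CPM and 2414 CPM. All 3 EMT6-PTR tumors were inside the EMT6-P range (log2 fold change -0.09, 95% interval from -0.59 to 0.42, adjusted p 0.881), and the metastasis was the lowest library. Ferritin genes have near-identical copies among which reads are shared by estimation, and the share on copies was larger for Ftl1. The 3 named Ftl1 pseudogenes held 6.55% to 10.6% as many counts as Ftl1, and the 5 named Fth1 pseudogenes at most 0.0061% as many as Fth1.

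The ratio of heavy to light ferritin transcripts, which does not depend on scaling, was 0.654, 0.611 and 0.674 in EMT6-P, 0.584, 0.613 and 0.957 in EMT6-PTR and 1.67 in the metastasis. EMT6-PTR replicate 3 was above the EMT6-P range, replicate 2 inside it and replicate 1 below it. The mean log2 ratio differed by 0.12 between the groups (exact two-sided permutation test over 20 assignments, p = 0.9, where the smallest possible p is 0.1), and by -0.11 without EMT6-PTR replicate 3. The metastasis was the only library in which Fth1 had more counts than Ftl1. The ratio of Tfrc to Fth1, uptake against storage, was 0.0762, 0.0454 and 0.0623 in EMT6-P, 0.0906, 0.0546 and 0.0161 in EMT6-PTR and 0.0141 in the metastasis, so that EMT6-PTR replicate 3 and the metastasis were again the lowest. The mean log2 ratio differed by -0.48 (exact permutation test, p = 0.8), and by 0.23 without EMT6-PTR replicate 3.

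**Figure D4:**
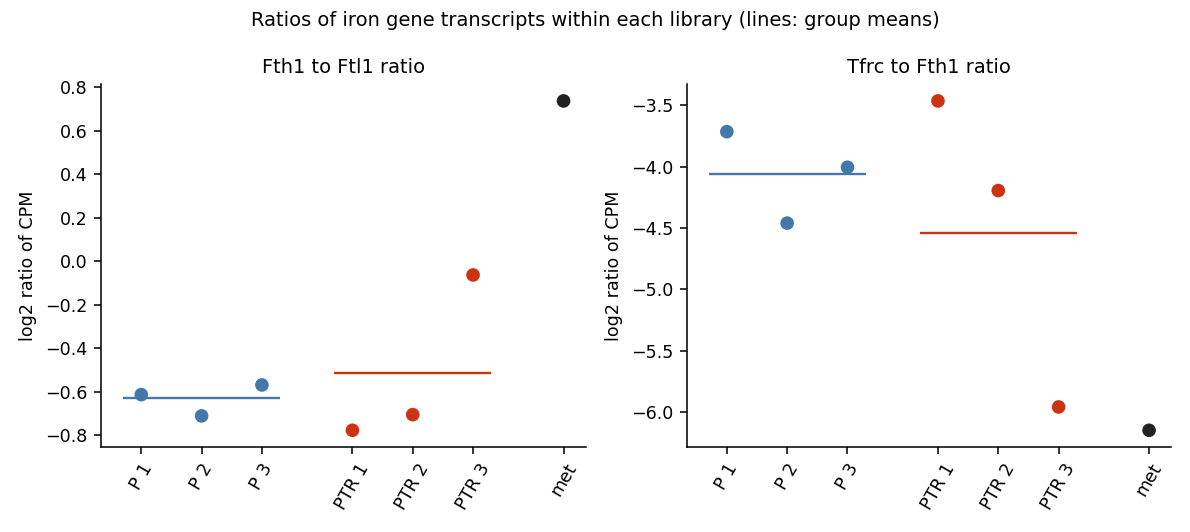
Log2 ratio of CPM within each library for Fth1 to Ftl1 (left) and Tfrc to Fth1 (right), with points for libraries and lines for the mean of 3 tumors. The metastasis has the highest Fth1 to Ftl1 ratio (1.67) and the lowest Tfrc to Fth1 ratio (0.0141), and EMT6-PTR replicate 3 lies next to it in both.

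Of the 8 genes of iron storage and ferritin turnover, 7 passed the filter, with 4 above 0, 3 below, a median of 0.02 and 0 called. The median was below 0 without EMT6-P replicate 3 (-0.15), EMT6-PTR replicate 2 (-0.06) or EMT6-PTR replicate 3 (-0.015). Ncoa4, the receptor that delivers ferritin for degradation, had the smallest p, with 85.6, 82.0 and 86.6 CPM in EMT6-P against 83.0, 124.5 and 111.9 CPM in EMT6-PTR (log2 fold change 0.33, SE 0.17, adjusted p 0.488). Of its 3 EMT6-PTR tumors, 2 were above the EMT6-P range. The chaperones that load ferritin, Pcbp1 and Pcbp2, had log2 fold changes of -0.19 and -0.17 (adjusted p 0.699 and 0.670). Ftmt, mitochondrial ferritin, had 0 counts in all 7 libraries. Over the 7 libraries, Cd37 (r 0.991) and Lrrfip2 (r 0.984) were nearest to Fth1, and Oser1 (r 0.944) and Hps4 (r 0.934) to Ftl1.

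Hmox1 (ENSMUSG00000005413.8, plus strand of chromosome 8 from 75093621 to 75100589), heme oxygenase-1, which opens the heme ring and frees its iron, stood at 137, 183 and 74.5 CPM in EMT6-P, 117, 264 and 84.1 CPM in EMT6-PTR and 290.0 CPM in the metastasis. As with Lcn2, EMT6-PTR replicate 2 alone was above all EMT6-P tumors. The log2 fold change was 0.23 (SE 0.50, adjusted p 0.863), and -0.38 (adjusted p 0.685) without that tumor. Its nearest genes were Spry2 (r 0.960) and Gbp3 (r 0.950), a guanylate-binding protein that interferons induce. Hmox1 is also a target of the stress factor NRF2, of whose 16 listed targets 7 were above 0 and 9 below (median -0.10), with 0 called. Without EMT6-PTR replicate 3, 10 were above 0 and 6 below (median 0.10). Nqo1, a quinone reductase, stood at 16.1, 16.4 and 19.4 CPM in EMT6-P and 15.3, 31.6 and 53.7 CPM in EMT6-PTR (log2 fold change 0.95, adjusted p 0.449). Txn1, thioredoxin, and G6pdx, the first enzyme of the pentose phosphate pathway, were lower in each EMT6-PTR tumor than in any EMT6-P tumor, with log2 fold changes of -0.51 and -0.27 (adjusted p 0.457 and 0.468). The directions within the list were thus mixed.

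Of 13 genes of heme uptake, transport and breakdown, 12 passed the filter, 8 above 0 and 4 below (median 0.27), with 0 called. This balance rested on EMT6-PTR replicate 3, since without that tumor 4 were above 0 and 8 below (median -0.08), while the median was 0.53 with EMT6-P replicate 2 omitted, and 0.54 or 0.16 with replicate 1 or 2 of EMT6-PTR omitted. Blvra, biliverdin reductase, which acts on the product of heme oxygenase, was lower in every EMT6-PTR tumor (17.9, 18.4 and 23.4 CPM) than in any EMT6-P tumor (28.4, 29.3 and 24.3 CPM), with a log2 fold change of -0.46 (SE 0.17, adjusted p 0.427). The constitutive heme oxygenase Hmox2 was also lower in each, at 58.0, 53.0 and 53.2 CPM against 67.9, 62.4 and 62.8 CPM (log2 fold change -0.23, adjusted p 0.471). Lrp1, which takes up heme bound to hemopexin among many ligands, stood at 735, 880.1 and 766 CPM against 869, 1197 and 1572 CPM (log2 fold change 0.61, adjusted p 0.433). Its highest value came from EMT6-PTR replicate 3, the tumor with the most fibroblast transcripts. The part of fibroblasts in it was not tested. Of the 9 genes of heme synthesis, 5 were above 0 and 4 below (median 0.17, and 0.34 without EMT6-PTR replicate 2), with 0 called. Alas1, the first and rate-limiting enzyme, was higher in every EMT6-PTR tumor (34.7, 33.4 and 40.2 CPM) than in any EMT6-P tumor (29.0, 27.1 and 30.4 CPM), with a log2 fold change of 0.32 (SE 0.14, adjusted p 0.438). Fech, which inserts the iron, was likewise apart (35.5, 37.4 and 39.4 CPM against 40.8, 45.3 and 97.6 CPM, adjusted p 0.468), and Ppox had an adjusted p of 0.548.

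Slc40a1 (ENSMUSG00000025993.10, minus strand of chromosome 1 from 45908068 to 45926523), ferroportin, had the smallest p of the 8 genes. It stood at 4.53, 6.13 and 5.41 CPM in EMT6-P, 5.38, 10.9 and 12.5 CPM in EMT6-PTR and 22.2 CPM in the metastasis, from 93 to 565 estimated counts. EMT6-PTR replicates 2 and 3 were above every EMT6-P tumor, and replicate 1 was inside their range. The log2 fold change was 0.84 (SE 0.35, 95% interval from -0.003 to 1.68, adjusted p 0.437), and it ranged from 0.60 to 1.12 with each tumor left out in turn, lowest without EMT6-PTR replicate 3. Agtrap (r 0.992) and Lrch1 (r 0.984) followed it most closely. Macrophages that recycle red cells are rich in ferroportin, and the scavenger receptor Cd163 of such cells stood at 4.29, 1.97 and 2.49 CPM in EMT6-P, 2.30, 2.96 and 19.97 CPM in EMT6-PTR and 13.5 CPM in the metastasis. Over the whole list the 12 macrophage markers summed to 2076 CPM in EMT6-PTR replicate 3, the lowest of the 7 libraries, and their part in the Slc40a1 values was not tested.

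Of 13 genes of iron export and its hormonal control, 9 passed the filter, 8 above 0 and 1 below, with a median of 0.44 and 0 called. Omitting EMT6-PTR replicate 3 brought the median to 0.24, and omitting EMT6-P replicate 1 to 0.73. One of those above 0, Hfe2, hemojuvelin, which skeletal muscle and liver express, had 59, 0 and 63 estimated counts in EMT6-P and 476, 0 and 0 in EMT6-PTR (log2 fold change 1.83, SE 2.26, adjusted p 0.743). Skeletal muscle markers summed to 629.7, 12.1 and 361 CPM in EMT6-P and 4226, 7.99 and 4.65 CPM in EMT6-PTR, and their part in the Hfe2 value was not tested. Heph, a copper enzyme that oxidizes exported iron, had 3, 11 and 9 estimated counts in EMT6-P and 14, 30 and 23 in EMT6-PTR (log2 fold change 1.52, SE 0.60, adjusted p 0.433). The groups did not overlap, but at such counts a difference of a few reads moves a value widely. Its abundant relative Cp, ceruloplasmin, stood at 718, 745 and 547 CPM in EMT6-P and at 622, 650.3 and 1448 CPM in EMT6-PTR, high in replicate 3 alone (log2 fold change 0.44, adjusted p 0.629). Tmprss6, a protease that restrains hepcidin, had its highest value, 4.38 CPM, in the same tumor (log2 fold change 1.45, adjusted p 0.491). Hamp, which encodes hepcidin, had 0 counts in all 6 tumors and 13 counts in the metastasis. Bmp6, the signal that induces hepcidin, stood at 26.1 CPM in the metastasis and at 0.140 to 1.52 CPM in the tumors.

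The genes that sense iron varied little. Ireb2, which encodes iron regulatory protein 2, stood at 78.6, 76.0 and 91.6 CPM in EMT6-P and 84.7, 93.2 and 108 CPM in EMT6-PTR (log2 fold change 0.22, SE 0.15, adjusted p 0.573). Aco1, iron regulatory protein 1, was 50.4 to 52.4 CPM in EMT6-P and 43.5 to 57.6 CPM in EMT6-PTR (log2 fold change -0.002, adjusted p 0.996). Fbxl5, the ligase subunit that degrades Ireb2 when iron is plentiful, was 71.9 to 79.6 CPM in the 6 tumors (log2 fold change 0.05, adjusted p 0.870) and 115 CPM in the metastasis. None of the 3 was apart between the groups. Among 8 transcripts known to carry an iron-responsive element, 4 were above 0 and 4 below, and the hairpin search found a match in 5 of them. Epas1, the hypoxia factor HIF-2α, had the smallest p, at 25.7, 21.3 and 21.1 CPM in EMT6-P and 34.0, 28.3 and 31.5 CPM in EMT6-PTR without overlap (log2 fold change 0.46, SE 0.15, adjusted p 0.427). The erythroid enzyme Alas2 had a log2 fold change of 1.51 (adjusted p 0.549).

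Mitochondria spend iron on heme and iron-sulfur clusters. Of 14 genes of this kind, all passed the filter, 2 above 0 and 12 below (median -0.12), with 0 called. With EMT6-PTR replicate 2 omitted the median was -0.07, and with replicate 3 omitted it was -0.21. Abcb8, a transporter of the inner mitochondrial membrane, and Hscb, a cochaperone of cluster assembly, had log2 fold changes of -0.27 and -0.20 (adjusted p 0.607 and 0.716), and their groups overlapped. Lcn2 is also an acute phase gene, and of 16 such genes 9 passed the filter, 8 above 0 and 1 below (median 0.71), with 0 called. Without EMT6-PTR replicate 1 the median was 1.31. Serpina3n, a secreted protease inhibitor, stood at 4.92, 1.54 and 6.02 CPM in EMT6-P and 12.1, 4.36 and 33.1 CPM in EMT6-PTR (log2 fold change 1.99, SE 0.81, adjusted p 0.437). Saa3, serum amyloid A3, and Hp, haptoglobin, which binds free hemoglobin, were above the EMT6-P range in EMT6-PTR replicates 2 and 3 and below it in replicate 1, with log2 fold changes of 1.37 and 1.12 (adjusted p 0.468 and 0.492).

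**Figure D5:**
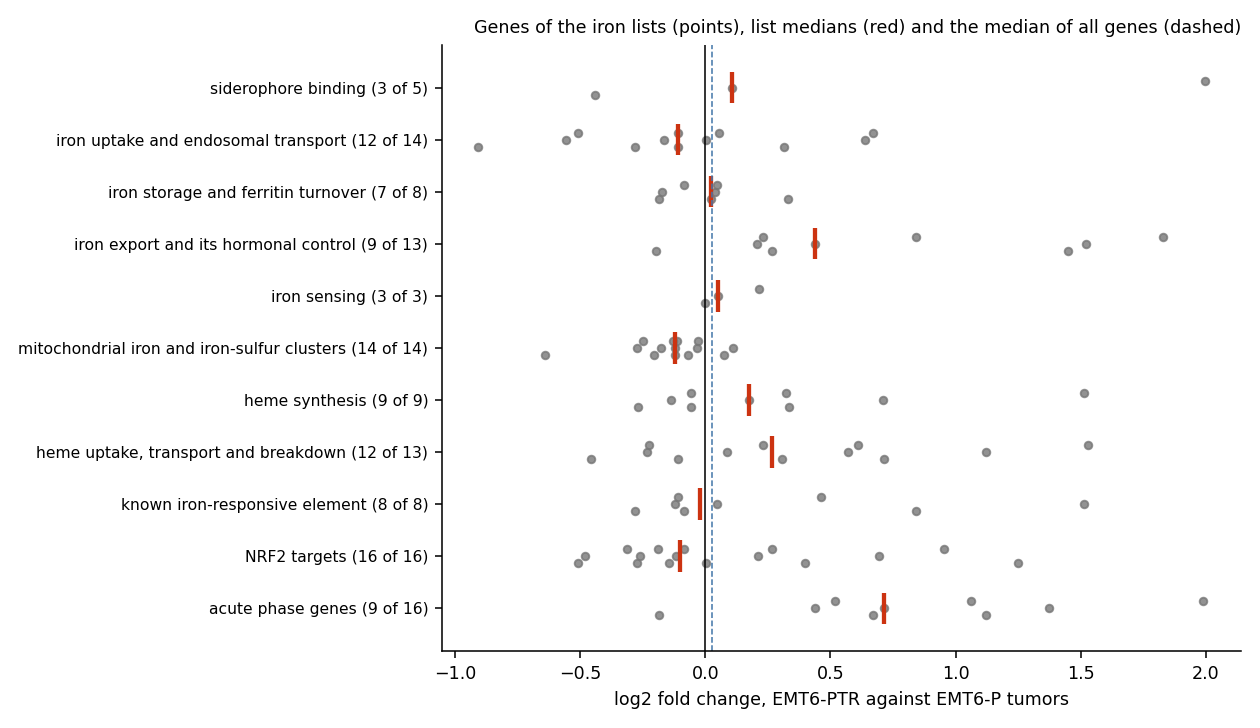
Log2 fold change of EMT6-PTR against EMT6-P for every gene of the iron lists that passed the filter (points; the number passing of the number listed in brackets), with the median of each list (red) and of all tested genes (dashed, 0.03). Export and acute phase genes lie mostly to the right and mitochondrial genes mostly to the left, and none of the points was called.

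Per kilobase of exon, the 8 genes spanned several orders of magnitude. In EMT6-P tumors Ftl1 had 2403 ± 392 CPM per kilobase (SD, n = 3), rank 17 of 18580 genes, and Fth1 597 ± 71.4, rank 96. Hmox1 followed with 75.3 ± 31.2, Tfrc with 20.4 ± 5.46, Lcn2 with 15.3 ± 12.7, Slc11a1 with 4.55 ± 0.92, Slc40a1 with 0.595 ± 0.089 and Slc22a17 with 0.329 ± 0.040 CPM per kilobase. Of neighbours in this order, only Tfrc and Lcn2 overlapped in their 3 tumors, and their order turned per kilobase of the longest transcript, with 29.2 for Lcn2 and 25.8 for Tfrc. In EMT6-PTR tumors Lcn2, with 61.2 ± 74.4 CPM per kilobase, came before Tfrc, with 16.8 ± 9.16, and its tumors overlapped with those of both Hmox1 (88.4 ± 54.6) and Tfrc, as did the tumors of Tfrc and Slc11a1 (4.57 ± 2.35). By rank Lcn2 stood at 3529 of 18580 genes in EMT6-P, 846 in EMT6-PTR and 140 in the metastasis, against 2734, 3182 and 5345 for Tfrc.

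The metastasis is a single library, so that its values have no replicate check and no test. It lay above all 6 tumors for 6 of the 8 genes, below them for Ftl1 and inside their range for Tfrc, where 24.8% of 18619 genes lay above and 22.2% below all tumors. It was at least 2-fold above the mean of the EMT6-PTR tumors for 3 genes, a distance that 16.9% of genes reached upward and 12.9% downward. These were Lcn2 (6.81-fold), Slc11a1 (3.13-fold) and Slc40a1 (2.31-fold). Their log2 ratios were 2.77, 1.65 and 1.21, and which genes passed 2-fold depended on single EMT6-PTR tumors. Without replicate 2 the log2 ratio of Lcn2 was 4.48 and Hmox1 also passed (1.53). Without replicate 1 Slc40a1 fell short (0.92) and Slc22a17 passed (1.29), and without replicate 3 Fth1 passed (1.06) and Tfrc was more than 2-fold lower (-1.25). Fth1 was 1.88-fold and Hmox1 1.87-fold above that mean, whereas Tfrc stood at 0.546 and Ftl1 at 0.796 of it. Against EMT6-PTR replicate 2, the tumor with the most Lcn2, the metastasis was still 2.85-fold higher for Lcn2. Acute phase genes were high as well, with 12 of 16 above all tumors, among them Hp at 627 CPM against 4.34 to 22.5 CPM and Serpina3n at 540.3 CPM against 1.54 to 33.1 CPM. Epas1 stood at 641 CPM and Alas2 at 68.0 CPM. The lung, neutrophil and erythroid sums of 8435, 3397 and 7679 CPM in the same library accompany these values. Which cells of the metastasis gave the iron transcripts was not tested.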

How the data were processed

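Stranded libraries of polyadenylated RNA from 7 tumor tissues were analysed. The authors checked reads with FastQC 0.11.5, aligned them with STAR 2.6.0a to GRCm38 (GENCODE M16) and estimated counts per gene with RSEM 1.3.1. The deposited values are these expected counts, which are not normalized. Columns were assigned to groups by the sample labels, and no other column of per-sample values was present (0). Identifiers were matched to symbols by stable ID in GENCODE M21 (53274 of 53465). Counts were rounded, filtered (filterByExpr), scaled to the upper quartile. Quasi-likelihood fits (glmQLFit, glmQLFTest) of edgeR 4.0.16 in R 4.3.3 compared 3 EMT6-PTR with 3 EMT6-P tumors, and genes were called at an adjusted p (Benjamini-Hochberg) under 0.05. Standard errors were obtained as the log2 fold change over the square root of F. Printed CPM values use factors over all 7 libraries. Ratios were compared by exact permutation tests (scipy 1.17.1). The 8 genes and the gene lists were chosen with earlier results of these data known. Named besides the 8 are up to 3 genes of each pathway list with the smallest p, the most abundant gene and the gene of smallest p of a marker list, the iron sensors, and the genes nearest in log2 CPM (prior count 2), 5 for Lcn2 and 2 for each other gene. Other names were chosen after their values were seen. Some genes of these lists are not reported here. The common dispersion was 0.140 over both groups, 0.0266 in EMT6-P and 0.246 in EMT6-PTR. Alternatives were TMM scaling, total counts without the ribosomal gene, DESeq2 1.42.0, limma-voom (limma 3.58.1), other filters, the metastasis in the fit, a replicate block and leaving out each tumor. The scripts were tested on simulated data.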

Additional observations from a re-analysis of the deposited data

How the results depend on the processing

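The side of the threshold did not change for any of the 8 genes or of the pathway genes under any alternative, since none was called by any of them. Across all genes, DESeq2 called 138 higher and 143 lower, against 0 in the other fits. The direction of the 8 log2 fold changes held under TMM scaling, DESeq2, both other filters, total counts without the ribosomal gene and the metastasis in the fit, and that of Slc11a1 turned under limma-voom (-0.14). Directions depended on single tumors. When 1 tumor at a time was omitted, log2 fold changes spanned -0.66 to 0.10 for Tfrc, -0.10 to 0.19 for Fth1, -0.22 to 0.019 for Ftl1, -0.38 to 0.54 for Hmox1, -0.49 to 0.24 for Slc11a1 and 0.29 to 2.92 for Lcn2. That of Slc40a1 stayed above 0 and that of Slc22a17 below 0 in these fits. The difference in log2 ratio ranged from -0.11 to 0.25 for Fth1 to Ftl1 and from -1.02 to 0.23 for Tfrc to Fth1, and both turned without EMT6-PTR replicate 3. Without that tumor 1 of the 8 genes, Tfrc, was at least 2-fold lower in the metastasis, against 0 with it, and 3 to 4 were at least 2-fold higher with each EMT6-PTR tumor omitted. Replicate numbers are shared by both groups, and the labels do not say whether they pair the tumors. Deviations of same-numbered tumors correlated at 0.259, 0.253 and 0.038, and those of differently numbered tumors at -0.286 to 0.098. Whether the numbers pair the tumors was not tested. With the replicate number as a block, 0 genes were called, 1268 instead of 1786 had an unadjusted p under 0.05, and the log2 fold change of Slc11a1 was -0.10. Per kilobase of the longest transcript in place of all exons, EMT6-P levels were 29.2 for Lcn2, 25.8 for Tfrc, 1004 for Fth1, 3327 for Ftl1, 1.36 for Slc40a1 and 6.19 for Slc11a1. These levels follow from the length used, which for Lcn2 was 1374 in place of 2623 bases. The cause of the shifts in log2 fold change between fits was not tested. Depth limits Slc22a17, Heph and the genes with single counts.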
